A study of Mus musculus with 2 samples.

Results

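The cornified envelope and epidermal differentiation genes were taken from the count table as all symbols that start with Lce or Sprr, together with Flg2, Hrnr, Rptn, Lor, Ivl, Tchh, Tchhl1, Crnn, Tgm1, Tgm3 and Casp14. They came to 48 of the 24421 genes counted, and Flg was not analysed here. Back skin was stretched with a glued-on device for 5 days at an initial strain of 33% (Tension, 1 RNA-seq library), and skin left unstretched was taken on the same day (Control, 1 library). Both were whole-layer skin of wild type C57BL6/J mice. Per the methods, strain was raised each day from its initial value. Whether the Control skin used for RNA-seq carried a device is not stated there. The methods describe 8-week-old females whose hair follicles were in telogen, the resting phase of the hair cycle, and they do not say whether a library held 1 mouse or a pool. With 1 library per group no difference here has a replicate check, and no p-value is given.

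The cornified envelope is the protein shell that replaces the plasma membrane of a keratinocyte in the last steps of its life. Loricrin, involucrin, the small proline-rich (Sprr) proteins and the late cornified envelope (Lce) proteins are its building blocks, and transglutaminases weld them together through isopeptide bonds. The S100-fused proteins, named for an S100 domain joined to a long run of repeats, fill and bind the keratin of the dying cell. Most members serve the surface epidermis, whereas trichohyalin (Tchh) is known above all as a protein of the inner root sheath, the layer of the growing hair follicle that moulds the hair shaft, and transglutaminase 3 (Tgm3) works in the hair follicle as well as in the epidermis.

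Library depth was 14152379 counts for Control skin and 11648655 for Tension skin. Levels are given as counts per 1000000 library counts (CPM) and, between genes, as FPKM, which is CPM per 1000 bases of exon. Each log2 fold change is the ratio of CPM in Tension skin to Control skin with its exact 95% Clopper-Pearson interval, which covers counting error only. Genes with 3 counts or fewer in both libraries (0.212 and 0.258 CPM) were taken as unmeasured, and medians of lists were taken with lower counts raised to 3. The median log2 fold change of the 16255 measured genes was -0.12. Other scalings add a constant to every log2 fold change, 0.10 with TMM and 0.11 with median of ratios. The whole-layer skin held the defining keratins of the epidermis in both libraries, with Krt14 at 2710 and 3290 CPM and Krt10 at 4490 and 4550 CPM. In bulk tissue, fewer cells of a type and less RNA per cell cannot be told apart.

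The members differed widely. Tchh, Tchhl1, Crnn and Tgm3 were 2.96-fold to 12.0-fold lower in Tension skin, the other S100-fused genes, the other enzymes, Lor and Ivl lay between 1.93-fold lower and 1.10-fold higher, and Sprr1b, Sprr2h and Lce3c, all of low level in Control skin, were 2.47-fold to 7.40-fold higher. By the rule of the methods, which asks for an EV (the product of both FPKM values) above 10 with a ratio of 2 or more, or of 0.5 or less, 33 members passed the EV filter. Here 1 was added to each FPKM value in both the EV and the ratio, which lowers the ratio of genes of low level. Of these 33, 3 were upregulated (Sprr1b, Sprr2h and Lce3c), against 2.61% of all 10910 genes that passed, and 4 were downregulated (Tchh, Tchhl1, Crnn and Tgm3), against 2.44%. With 0 or 0.1 added in place of 1, the upregulated members numbered 4, Sprr2g among them. These counts of 3 and 4 are 9.09% and 12.1% of the members that passed. Of 42 measured members the counting interval lay wholly above 0 for 12, against 18.1% of all measured genes, and wholly below 0 for 13, against 33.5%. These are 28.6% and 31.0% of the measured members, and with at least 20 counts required the interval lay above 0 for 8 of 34 and below 0 for 13. The members' median log2 fold change of -0.14 lay close to that of all measured genes.

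**Figure D1:**
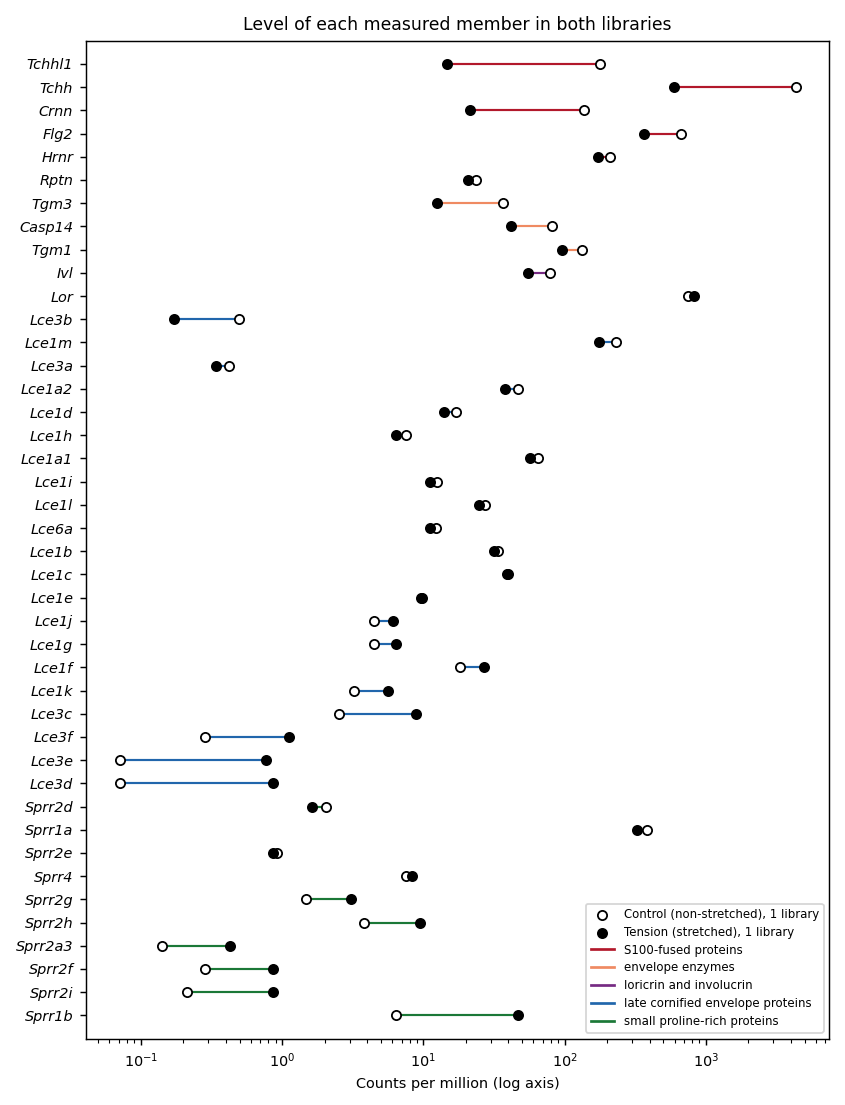
Level of the 42 measured members in Control (open circles) and Tension (filled circles) skin, in CPM on a log axis, with 1 library per group and line colours for the member groups. The long lines to the left belong to Tchhl1, Tchh, Crnn, Tgm3 and Lce3b, which had 7 and 2 counts, and the long lines to the right to Sprr1b and to Sprr2 and other Lce3 genes, most of them under 10 CPM.

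**Figure D2:**
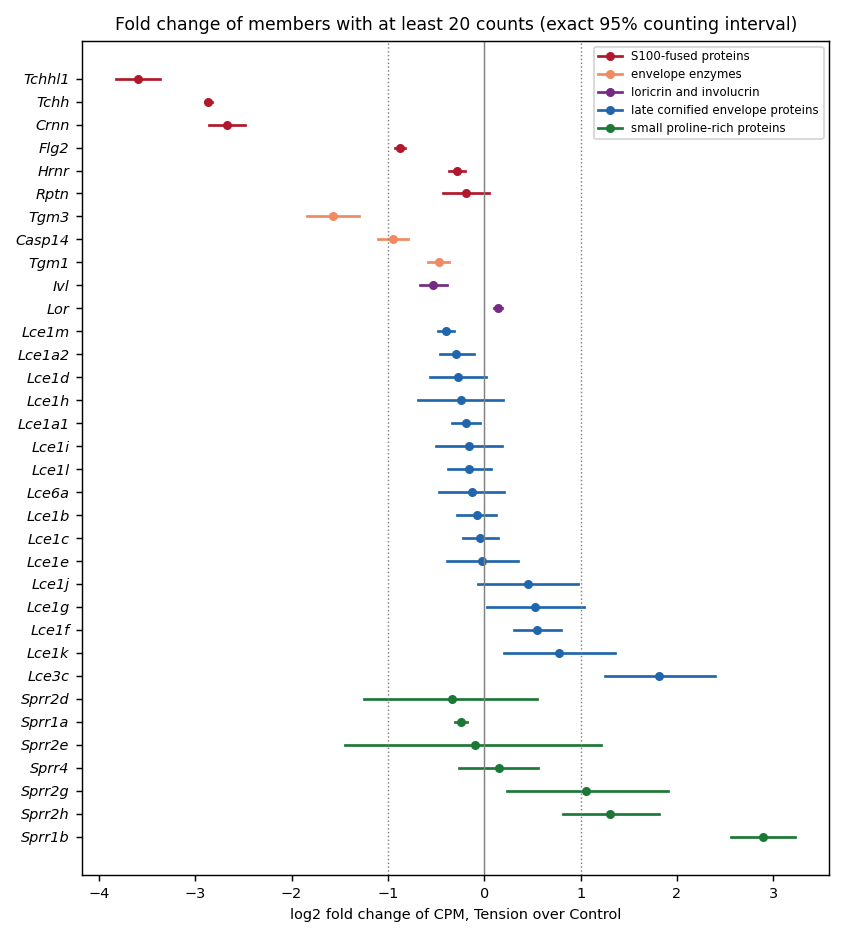
The log2 fold change of CPM, Tension over Control, for the 34 members with at least 20 counts over both libraries. Points are ratios, bars are exact 95% counting intervals and dotted lines mark 2-fold. Tchhl1 at -3.59 and Sprr1b at 2.89 were the ends of the range, and 15 of the 16 Lce genes shown lay within 2-fold.

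The S100-fused proteins had the largest difference of the member groups when counts were summed. All 6 were lower in Tension skin, 5 with an interval wholly below 0 (33.5% of all measured genes), and their summed counts went from 78236 in Control skin to 13795 in Tension skin, or from 5530 to 1180 CPM (log2 fold change -2.22, interval -2.25 to -2.20). Trichohyalin, whose arginines are turned into citrulline before it is cross-linked in the inner root sheath, made up 78.0% of these counts in Control skin and 49.9% in Tension skin.

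Tchh had 61054 counts in Control skin and 6885 in Tension skin, a level of 4310 CPM against 591 CPM. It was 7.30-fold lower (log2 fold change -2.87, interval -2.90 to -2.83), and it had rank 89 from the lowest among the 12740 genes that reached 100 counts in sum. Tchhl1, the trichohyalin-like gene next to it, had 2509 and 172 counts and was 12.0-fold lower (log2 fold change -3.59, interval -3.82 to -3.36). Crnn, which encodes cornulin, an S100-fused protein of stratified epithelia, had 1923 counts in Control skin and 249 in Tension skin. Its level was 6.36-fold lower (log2 fold change -2.67, interval -2.86 to -2.48). These 3 genes share no 76-base stretch, the length of a read, with another gene of the annotation.

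The other S100-fused genes differed far less. Flg2, which encodes filaggrin-2, a keratin-bundling protein of the granular layer, had 9470 counts in Control skin and 4255 in Tension skin (log2 fold change -0.87, interval -0.93 to -0.82). Hrnr, which encodes hornerin, had 2945 and 1992 counts (log2 fold change -0.28, interval -0.37 to -0.20). For Rptn, the repetin gene, 335 and 242 counts gave an interval that included 0 (-0.43 to 0.05), and scaled to the basal keratinocyte markers the interval was -0.53 to -0.04, so whether Rptn differed depended on the scaling. Summed over Flg2, Hrnr and Rptn the log2 fold change was -0.69 (interval -0.74 to -0.65), against -2.88 (interval -2.92 to -2.85) summed over Tchh, Tchhl1 and Crnn.

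Markers of the inner root sheath moved with Tchh. All 8 inner root sheath keratins were lower in Tension skin and all 8 were downregulated by the rule of the methods (2.44% of all genes that passed the EV filter), with a median log2 fold change of -2.45, and their summed level was 9370 CPM in Control skin and 1710 CPM in Tension skin. Krt71, a main keratin of this sheath, had 60382 and 8796 counts (log2 fold change -2.50), Krt27 had 21073 and 2629 (-2.72), Krt72 had 3968 and 379 (-3.11) and Krt26 had 3522 and 296 (-3.29). The 12 keratins of the hair shaft cortex and cuticle were also all lower, from a sum of 1770 CPM to 174 CPM, and none of the keratins on either list was at 0. Control skin, which the methods place in telogen, thus held these follicle keratins at a high level. Set against the inner root sheath keratins, there were 460 Tchh counts per 1000 keratin counts in Control skin and 345 in Tension skin, and 14.5 and 12.5 Crnn counts. On this scale, chosen after the values were seen, the log2 fold change was -0.42 for Tchh, -0.22 for Crnn and -1.14 for Tchhl1. The part of the follicle markers in these differences was not tested, and growth state and strain cannot be told apart with 1 library per group.

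The enzymes of envelope assembly were all lower in Tension skin, to different degrees. Tgm3 had 518 counts in Control skin and 144 in Tension skin, 2.96-fold lower (log2 fold change -1.57, interval -1.84 to -1.30). Tgm1, the membrane-bound transglutaminase that cross-links the envelope of the surface epidermis, had 1871 and 1109 counts (log2 fold change -0.47, interval -0.58 to -0.37). There were 27.7 counts of Tgm3 per 100 counts of Tgm1 in Control skin and 13 in Tension skin. Per 1000 inner root sheath keratin counts, however, Tgm3 was at 3.91 in Control skin and 7.21 in Tension skin, a log2 ratio of 0.88 in the other direction. Casp14, the caspase that takes part in the breakdown of filaggrin, had 1144 counts in Control skin and 489 in Tension skin. It was 1.93-fold lower (log2 fold change -0.95, interval -1.10 to -0.79), short of the fold threshold of the rule. Summed over the enzymes the level was 250 CPM and 150 CPM.

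Loricrin stood apart from the other abundant members. Lor, the main protein of the mature envelope, had 10630 counts in Control skin and 9659 in Tension skin, and its level of 751 CPM and 829 CPM was 1.10-fold higher (log2 fold change 0.14, interval 0.10 to 0.18). Scaled to the 8 basal keratinocyte markers it was 0.05 (interval 0.01 to 0.09). By FPKM Lor was at 422 and 466, Tchh at 741 and 102, and Sprr1a at 474 and 402, so that the order of these genes by level changed from Tchh first to Lor first. Ivl, which encodes involucrin, an early scaffold of the envelope, had 1117 and 636 counts and was 1.45-fold lower (log2 fold change -0.53, interval -0.67 to -0.39). Loricrin and involucrin thus differed in opposite directions, and the gap between them was larger than their counting intervals.

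The Lce genes encode small cysteine-rich and glycine-rich proteins that are laid down late under the envelope, and their genes lie close together in the differentiation complex. All 21 were measured. The interval lay above 0 for 7, below 0 for 3 (18.1% and 33.5% of all measured genes) and included 0 for 11, and the summed counts of the family were 7562 in Control skin and 5521 in Tension skin, or 534 CPM and 474 CPM (log2 fold change -0.17, interval -0.22 to -0.12). The family total was carried by Lce1m, which had 3239 and 2027 counts (log2 fold change -0.40, interval -0.48 to -0.31), and without it the log2 fold change was -0.03.

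Within the family the Lce1 and Lce3 groups differed. The 14 Lce1 genes, typical of normal epidermis, summed to 518 CPM in Control skin and 451 CPM in Tension skin, and their log2 fold changes ran from -0.40 to 0.78. Lce1a1 had 920 and 665 counts (log2 fold change -0.19, interval -0.33 to -0.04) and Lce1a2 had 658 and 444 (-0.29), with intervals below 0. With TMM, which adds 0.10, the Lce1a1 interval included 0. Lce1f had 259 and 313 counts (0.55, interval 0.31 to 0.80), Lce1k had 46 and 65 (0.78, interval 0.21 to 1.36) and Lce1g had 63 and 75 (0.53, interval 0.03 to 1.04), with intervals above 0. Scaled to the basal keratinocyte markers the Lce1g interval was -0.07 to 0.94, which includes 0. For the other 8 Lce1 genes the interval included 0. Their counts were 565 and 453 for Lce1c, 475 and 371 for Lce1b, 387 and 286 for Lce1l, 240 and 164 for Lce1d, 175 and 129 for Lce1i, 138 and 112 for Lce1e, 106 and 74 for Lce1h and 63 and 71 for Lce1j. The same held for Lce6a, with 173 and 130 counts. Scaled to the basal keratinocyte markers, however, the interval lay below 0 for Lce1d (-0.66 to -0.07) and Lce1l (-0.48 to -0.03). With TMM it lay above 0 for Lce1j. No Lce1 gene passed 2-fold in either direction.

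The 6 Lce3 genes, whose human counterparts are known for induction in wounded and psoriatic skin, were barely expressed in Control skin. They summed to 55 counts in Control skin and 142 in Tension skin, 3.89 CPM and 12.2 CPM (log2 fold change 1.65, interval 1.19 to 2.13). Most of these counts came from Lce3c, which had 36 and 104 counts and was 3.51-fold higher (log2 fold change 1.81, interval 1.25 to 2.40). Lce3f had 4 and 13 counts (1.98, interval 0.29 to 4.06), Lce3d 1 and 10 (3.60, interval 0.79 to 9.04) and Lce3e 1 and 9 (3.45, interval 0.60 to 8.90), so their size is poorly known. Lce3a with 6 and 4 counts and Lce3b with 7 and 2 had intervals that included 0. Without Lce3c the sum was 19 and 38 counts, a log2 ratio of 1.28 (interval 0.45 to 2.16).

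Reads cannot always be placed within these groups, and the stretches that copies have in common are shown here because they limit single-gene values. Between 27.9% and 45.5% of the 76-base stretches of Lce3c, Lce3d, Lce3e and Lce3f occurred in another Lce3 gene. Of the stretches of a single Lce1 gene, up to 13.4% (Lce1e) occurred in other Lce1 genes. No stretch of an Lce or Sprr gene occurred outside its own family, and how shared reads were counted is not given in the sources used here. The coding stretch of bases 175 to 250 of Lce3c, counted from the start codon in GENCODE M21, was found in all 5 other Lce3 genes, and bases 280 to 355 of the Lce1c coding sequence in 4 other Lce1 genes.
Lce3c: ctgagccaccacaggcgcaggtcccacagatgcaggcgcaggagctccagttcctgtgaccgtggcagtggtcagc
Lce1c: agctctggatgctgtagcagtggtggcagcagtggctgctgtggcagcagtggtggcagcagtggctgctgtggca

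The small proline-rich genes encode cross-bridging proteins of the envelope, and Sprr1b and several Sprr2 genes are known to be induced in stressed epidermis. Of the 16 genes, 6 were unmeasured. Sprr2a1, Sprr2a2, Sprr2b and Sprr3 were listed at 0 in both libraries, Sprr2j-ps had 3 and 2 counts and Sprr2k had 0 and 2. Since 94.2% of the stretches of Sprr2a1 and 94.6% of those of Sprr2a2 occur in other Sprr2 genes, a count of 0 does not show that these genes were silent.

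As a total the Sprr family had 5731 counts in Control skin and 4621 in Tension skin. Scaled to library totals its interval included 0 (log2 fold change -0.03, interval -0.09 to 0.03). It was 0.07 with TMM and -0.13 scaled to the basal keratinocyte markers, both outside that interval. Whether and in which direction the total differed thus depended on the scaling, while the make-up of the family differed. Sprr1a, the most abundant member, had 5406 and 3772 counts and was 1.18-fold lower (log2 fold change -0.24, interval -0.30 to -0.18), and its share of the family was 94.3% in Control skin and 81.6% in Tension skin. Sprr1b had 90 counts in Control skin and 548 in Tension skin, a level of 6.36 CPM against 47.0 CPM. It was 7.40-fold higher (log2 fold change 2.89, interval 2.56 to 3.23) and had rank 25 from the highest among the 12740 genes of at least 100 counts. Its share of the family was 1.57% (Wilson interval 1.28% to 1.93%) in Control skin and 11.9% (11% to 12.8%) in Tension skin. Sprr1b was at 1.66 counts per 100 counts of Sprr1a in Control skin and 14.5 in Tension skin, and neither gene shares a stretch with another gene.

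Sprr2 genes were low in both libraries, and of the 7 measured the interval lay above 0 for 3 (18.1% of all measured genes) and included 0 for 4. Summed over all 12, they had 129 counts in Control skin and 204 in Tension skin (log2 fold change 0.94, interval 0.62 to 1.27), and without Sprr2h 75 and 94 (0.61, interval 0.15 to 1.06). Sprr2h had 54 and 110 counts and was 2.47-fold higher (log2 fold change 1.31, interval 0.82 to 1.81), and Sprr2g, annotated as a polymorphic pseudogene, had 21 and 36 (1.06, interval 0.24 to 1.91). Sprr2d with 29 and 19 counts, Sprr2e with 13 and 10 and Sprr4 with 106 and 97 had intervals that included 0. The remaining measured genes, Sprr2a3, Sprr2f and Sprr2i, had at most 10 counts in either library, and of these only Sprr2i, with 3 and 10 counts (2.02, interval 0.06 to 4.52), had an interval above 0. Scaled to the basal keratinocyte markers the Sprr2i interval was -0.04 to 4.42, which includes 0. Without Sprr1a the family summed to 325 and 849 counts, a log2 ratio of 1.67 (interval 1.48 to 1.86).

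The promoters of contrasting members are shown as the 250 bases before the RefSeq start on GRCm38.p6, which is mm10, since Sprr1a and Sprr1b, and Lce1m and Lce3c, are pairs of one family each whose levels differed in opposite directions. Capitals mark matches to the AP-1 motif TGANTCA and to the TATA motif TATAAA on either strand. Sprr1b lies on the minus strand with its window at chr3:92438780-92439029, Sprr1a on the minus strand at chr3:92485882-92486131, Lce3c on the plus strand at chr3:92944236-92944485, Lce1m on the minus strand at chr3:93019062-93019311, Crnn on the plus strand at chr3:93144539-93144788 and Lor on the minus strand at chr3:92083143-92083392.
Sprr1b: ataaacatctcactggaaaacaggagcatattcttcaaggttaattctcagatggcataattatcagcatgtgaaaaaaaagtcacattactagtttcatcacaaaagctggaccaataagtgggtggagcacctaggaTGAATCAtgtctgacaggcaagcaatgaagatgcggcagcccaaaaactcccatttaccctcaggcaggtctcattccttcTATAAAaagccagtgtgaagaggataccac
Sprr1a: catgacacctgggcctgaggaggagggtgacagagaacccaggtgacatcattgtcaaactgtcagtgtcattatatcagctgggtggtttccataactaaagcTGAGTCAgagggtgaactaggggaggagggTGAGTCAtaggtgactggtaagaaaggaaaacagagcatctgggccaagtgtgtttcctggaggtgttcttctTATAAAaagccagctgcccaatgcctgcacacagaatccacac
Lce3c: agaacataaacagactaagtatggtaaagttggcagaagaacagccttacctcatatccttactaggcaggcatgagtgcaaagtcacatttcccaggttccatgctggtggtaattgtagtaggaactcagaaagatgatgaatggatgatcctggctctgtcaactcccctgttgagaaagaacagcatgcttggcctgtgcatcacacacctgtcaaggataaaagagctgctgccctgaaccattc
Lce1m: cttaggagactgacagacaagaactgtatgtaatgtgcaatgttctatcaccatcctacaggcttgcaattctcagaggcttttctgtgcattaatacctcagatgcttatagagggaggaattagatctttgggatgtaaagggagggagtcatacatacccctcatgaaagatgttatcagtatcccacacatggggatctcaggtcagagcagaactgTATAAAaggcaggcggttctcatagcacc
Crnn: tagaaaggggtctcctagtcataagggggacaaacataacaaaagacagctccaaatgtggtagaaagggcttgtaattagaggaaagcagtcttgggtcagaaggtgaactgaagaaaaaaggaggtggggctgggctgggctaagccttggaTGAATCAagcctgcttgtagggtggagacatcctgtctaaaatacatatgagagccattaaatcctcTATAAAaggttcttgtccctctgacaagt
Lor: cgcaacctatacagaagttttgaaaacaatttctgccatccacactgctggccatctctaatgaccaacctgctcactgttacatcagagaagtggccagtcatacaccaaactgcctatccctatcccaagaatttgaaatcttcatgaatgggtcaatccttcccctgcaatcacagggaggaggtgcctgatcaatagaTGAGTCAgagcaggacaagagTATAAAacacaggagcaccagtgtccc

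An entry was found for 45 of the 48 members. TGANTCA occurred in 15 of these windows (33.3%), against 6.87% of 27025 promoters of the same length, 1 for each gene symbol. The matches lay in 9 of 14 Sprr windows, in 4 of 6 S100-fused windows and in those of Lor and Ivl, and in 0 of 20 Lce windows. TATAAA occurred in 20 windows (44.4%), against 13% of all promoters. Genes with the AP-1 letters were found among those higher in Tension skin (Sprr1b, Sprr2h), lower (Crnn, Tchhl1, Sprr1a) and nearly level (Lor), so the match did not separate the directions. The grainyhead-like motif AACCNGTT was found in 1 member window (2.22%), that of Rptn, and in 1.71% of all. A match describes letters only and is not evidence of binding.

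The order of the genes on the chromosome gives another view of the differences. The epidermal differentiation complex from Lor to Tchhl1 (chr3:92080271-93471980, 1.39 Mb) holds 45 of the members and 7 other genes of the table, and Tgm1, Tgm3 and Casp14 lie on chromosomes 14, 2 and 10. Genes with an interval above 0 lay close together in separate stretches, Sprr2g, Sprr2h, Sprr2i and Sprr1b in the Sprr block, with the unmeasured Sprr2j-ps and Sprr2k among them, and Lce3c to Lce3f side by side. In the Lce1 block Lce1f and Lce1g were neighbours, with Lce1k further on, and Lor stood alone at the proximal end. Of these genes, Sprr2i and Lce1g had intervals that included 0 when scaled to the basal keratinocyte markers. Between them, Sprr1a, Sprr4, Ivl and the Lce1 genes lay within 2-fold. The lower genes Crnn, Tchh and Tchhl1 lay at the distal end, but Flg2, Hrnr and Rptn between them were not lower by 2-fold. Prr9, a proline-rich gene beside Lor that is outside the member rule and was singled out after its values were seen, had 10203 counts in Control skin and 1054 in Tension skin (log2 fold change -2.99, interval -3.09 to -2.90), although Lor next to it was at 0.14. The other measured neighbours were Kprp (-0.19), Crct1 (-0.58) and 2310050C09Rik, whose interval included 0.

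**Figure D3:**
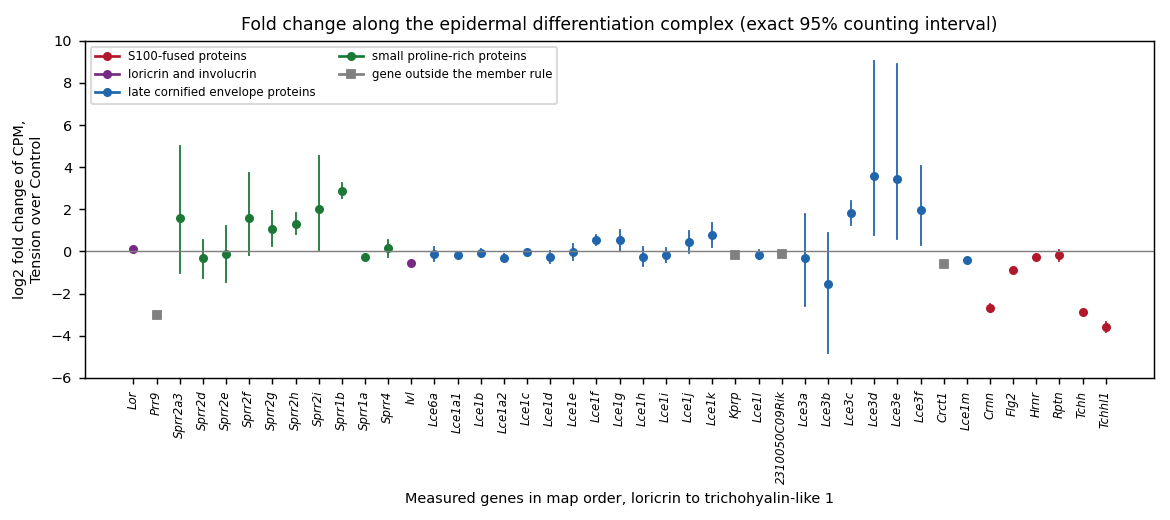
The log2 fold change of CPM, Tension over Control, of the 43 measured genes of the epidermal differentiation complex in map order, with exact 95% counting intervals. Circles are members, coloured by group, and grey squares are genes outside the rule. Points stand above 1 at Sprr2a3, at Sprr2f to Sprr1b and at Lce3c to Lce3f, and Prr9, Crnn, Tchh and Tchhl1 lie below -2.

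The make-up of the member counts follows from these differences and does not depend on library scaling. Members took 0.755% of the counts in Control skin and 0.309% in Tension skin. S100-fused proteins made up 73.2% of the member counts in Control skin and 38.3% in Tension skin, while loricrin and involucrin went from 11% to 28.6%, Lce proteins from 7.08% to 15.3% and Sprr proteins from 5.37% to 12.8%. The Sprr share was 7.48 percentage points higher. Without Tchh it was 3.36 points, from 12.5% to 15.9%, and without Tchh, Tchhl1, Crnn and Tgm3 it was 2.16 points. Without Tchh the Lce share was 16.5% and 19.0%, and that of loricrin and involucrin 25.7% and 35.4%, so these shares differed less once Tchh was left out. The enzyme share turned direction, from 3.31% and 4.84% with Tchh to 7.72% and 5.99% without it. Without Tchh the summed level of the members was 3230 CPM in Control skin and 2500 CPM in Tension skin (log2 fold change -0.37, interval -0.39 to -0.35).

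**Figure D4:**
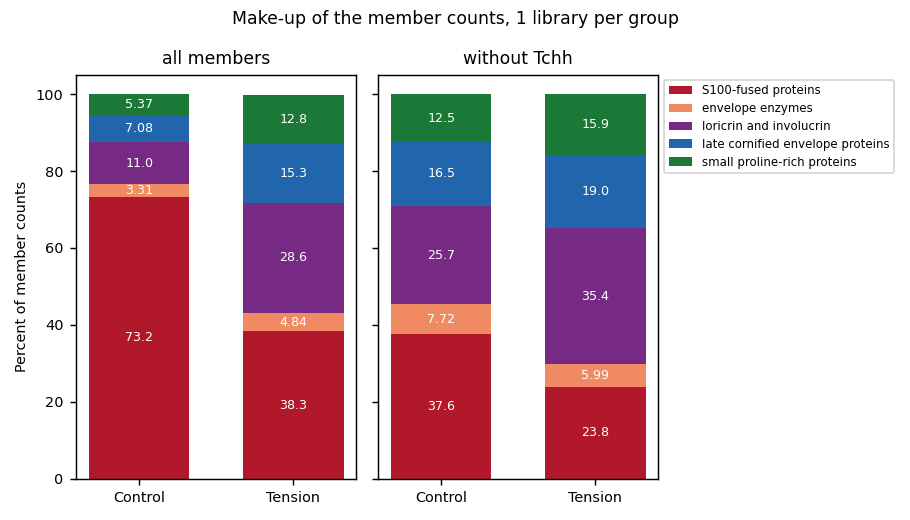
Share of the member counts (percent) held by each group in Control and Tension skin, for all members (left) and without Tchh (right), with 1 library per bar. The S100-fused share is 73.2% and 38.3% with Tchh and 37.6% and 23.8% without it.

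The summed levels of the epidermal marker lists, as shares of the library counts, were close in both libraries. The 8 basal keratinocyte markers summed to 9010 CPM in Control skin and 9640 CPM in Tension skin, and the 10 spinous and granular markers outside the rule to 10800 and 10600 CPM. None of them was at 0. Genes of these lists went both ways. Intervals lay above and below 0 for 3 and 3 genes of the basal list and for 5 and 5 of the other (18.1% and 33.5% of all measured genes). Their log2 fold changes ran from -0.49 to 0.33 and from -1.16 to 4.76. Scaling to the basal list lowers every log2 fold change by 0.10, which leaves Flg2 at -0.97, Casp14 at -1.04, Ivl at -0.63, Sprr1a at -0.34 and Sprr1b at 2.79. Among the 4 stress keratins, Krt16 (849 and 3182 counts, 2.19), Krt6b (1.90) and Krt6a (1.02) were upregulated (2.61% of all genes that passed the EV filter). Krt17, the most abundant, was lower (19209 and 10271 counts, -0.62), and the sum of the list was 1620 CPM in Control skin and 1590 CPM in Tension skin. Macrophage markers summed to 639 CPM in Control skin and 1500 CPM in Tension skin and neutrophil markers to 24.1 and 77.7 CPM, with all 6 and all 5 genes higher. Dermal fibroblast markers, all 6 higher, summed to 40900 and 77100 CPM, and skeletal muscle markers, all 6 lower, to 28100 and 15900 CPM, so that these tissues took much larger parts of the libraries than the members did. The part of these cell types in the members' values was not tested.

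Other genes of the same programme were counted from lists. Of 15 further envelope precursors and cross-linking genes the interval lay below 0 for 9 and above 0 for 5 (33.5% and 18.1% of all measured genes), none was called, and their median log2 fold change was -0.19. Ppl (7983 and 4070 counts, -0.69) and Dsp (32858 and 17039, -0.67), which encode the plakins periplakin and desmoplakin, were lower, and S100a10 (2899 and 3859, 0.69), a transglutaminase substrate, was higher. The 10 genes of filaggrin processing had a median of -0.51, with 8 intervals below 0 and 3 genes downregulated (2.44% of all that passed the EV filter). These 3 were the peptidylarginine deiminases, the enzymes that make citrulline, Padi1 (858 and 101 counts, -2.81), Padi3 (3281 and 482, -2.49) and Padi4 (397 and 119, -1.46). Padi3, which acts on trichohyalin, was at 24.7 counts per 1000 inner root sheath keratin counts in Control skin and 24.1 in Tension skin, and Padi1 at 6.47 and 5.06 (log2 ratio -0.36, interval -0.67 to -0.06).

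Genes of barrier lipids, desquamation and control had more intervals below 0 than above 0. All measured genes leaned the same way, but less so (33.5% below and 18.1% above, median -0.12). That background includes genes of few counts, whose intervals are wide. Of 19 barrier lipid genes the interval was below 0 for 11 and above 0 for 4 (median -0.25, none called), and Abca12, the lipid transporter of lamellar granules, had 1537 and 802 counts (-0.66). Of 13 desquamation and corneodesmosome genes 8 intervals were below 0 and 2 above (median -0.33), with Dsc1, a desmocollin of the upper layers, downregulated from 4706 to 1737 counts (-1.16) and the protease gene Klk6 at 298 and 482 counts (0.97). Among 21 regulators of epidermal differentiation 15 intervals were below 0 and 3 above (median -0.33, none called). Prdm1, a repressor active in granular cells and sebaceous glands, had 849 and 329 counts (-1.09, short of a call with 1 added to FPKM), Tfap2a 1141 and 560 (-0.75), Ovol1 1660 and 848 (-0.69) and Vdr 3350 and 1714 (-0.69).

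**Figure D5:**
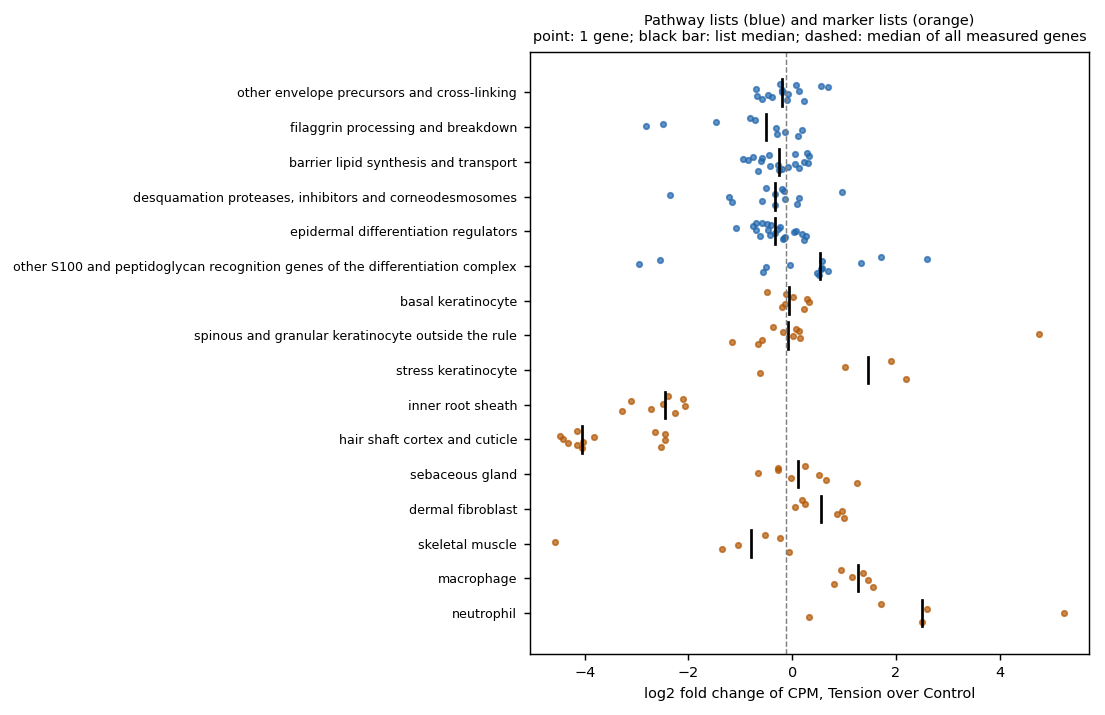
The log2 fold change of CPM, Tension over Control, of each measured gene (points) in 6 pathway lists (blue) and 10 marker lists (orange), with the median of each list (black bar) and of all measured genes (dashed line at -0.12). Inner root sheath and hair shaft keratins lie below -2 throughout. Medians of the pathway lists run from -0.51 (filaggrin processing) to 0.53 (S100 and peptidoglycan recognition genes).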

How the data were processed

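Total RNA of whole-layer skin was sequenced as single-end reads of 76 bases. Per the methods, the authors filtered reads on base quality with the FASTX-Toolkit version 0.0.13.2 aligned them to mm10 with TopHat2 version 2.1.0 and estimated normalized abundances with Cufflinks version 2.2.1. The deposited table holds whole-number read counts per gene symbol, and which program made these counts, with which annotation, and how it handled strand and multi-mapping is not given in the sources used here. Depth was 14152379 and 11648655 counts, so that 3 counts equal 0.212 and 0.258 CPM.

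Members and lists were chosen with earlier results of these data known. All members are named. Genes named from the 16 lists come from the up to 4 of each list with the largest fold change among those with at least 100 counts over both libraries, except Krt10 and neighbours of the members, and some lists are given by their sums alone. Of the symbols, 23376 were found in GENCODE M21 under the same name and 650 under a synonym, and 395 had no length. FPKM used the union of exons. Sharing of 76-base stretches was measured against all GENCODE transcripts. Shares carry Wilson 95% intervals. Calls and intervals were tested on simulated counts that held counting error only, which cannot show how much animals vary. Alternatives were other scalings (edgeR 4.0.16, DESeq2 1.42.0), other EV and pseudocount settings, a minimum of 20 counts, and members that share under 10% of their stretches. Python 3.11.15 and R 4.3.3 were used.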

Additional observations from a re-analysis of the deposited data

How the results depend on the processing

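No paired analysis was possible because each group holds 1 library, and no library could be left out. With TMM, median of ratios, upper quartile, totals less the 50 most counted genes and the basal keratinocyte total, in this order, the Lce total was -0.07, -0.06, -0.07, -0.11 and -0.27, the Sprr total 0.07, 0.08, 0.07, 0.03 and -0.13, the S100-fused total -2.12, -2.11, -2.12, -2.16 and -2.32, and the loricrin and involucrin total 0.19, 0.20, 0.19, 0.15 and -0.01, which changed sign with the last. The enzyme total was -0.64, -0.63, -0.64 and -0.84 with TMM, median of ratios, upper quartile and the basal total. These shifts follow from the scaling factors. Leaving out single genes was chosen after seeing the data. The S100-fused total was -1.03 without Tchh, the Sprr total 1.67 without Sprr1a, the Lce total -0.03 without Lce1m, the enzyme total -0.64 without Tgm3, and Ivl without Lor was -0.53, the other sign. The Sprr share differed by 3.36 points without Tchh and by 2.16 without Tchh, Tchhl1, Crnn and Tgm3. Upregulated members numbered 4 with 0 or 0.1 added to FPKM, 5 with no EV filter and 1 with EV above 100, of which the last 2 settings test more and fewer genes, and downregulated members 3 or 4 throughout. Members with an interval above 0 numbered 8 among the 34 with at least 20 counts, 8 once members with a shared part of 10% or above were left out, and 10 to 13 under other scalings, and those below 0 numbered 13, 13 and 12 to 16. The median of the spinous and granular markers was 0.02 with TMM and 0.03 with median of ratios, against -0.08. Of 210 values of single members under other scalings, 181 stayed within their counting intervals. Depth limits Lce3 and Sprr2 genes most.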

Other observations

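The S100 and peptidoglycan recognition genes that flank the same region differed in both directions. Of 15 such genes 14 were measured, with 8 intervals above 0 and 4 below (18.1% and 33.5% of all measured genes) and a median log2 fold change of 0.53. S100a3, known from the hair cuticle, had 3820 counts in Control skin and 405 in Tension skin (-2.96), and S100a7a had 317 and 45 (-2.54). In contrast S100a8, with 57 and 283 counts (2.59), and S100a9, with 69 and 187 (1.72), were higher, and both are also on the neutrophil list. Krt2, a keratin of the upper spinous layer, had 13 counts in Control skin and 289 in Tension skin (4.76, interval 3.96 to 5.68), whereas Krt10 was at 0.02.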
